A study of Sus scrofa with 60 samples.

Results

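HAMP, the gene of the iron hormone hepcidin, and BLVRA, a gene of heme breakdown, were followed in pig liver at 4 ontogenetic stages. They were 2 of the 6765 genes that the platform annotation names through at least 1 probe-set with a single gene symbol, and every probe-set with HAMP or BLVRA as its only symbol was taken, which gave 1 probe-set for each gene. Both genes were chosen by measured values of these same arrays, namely their stage patterns and the spread of HAMP among the animals of 28 dpn, so their levels are given as a description without a test. The animals were German Landrace offspring of gilts that received an adequate protein (AP) diet during gestation, and the groups differed by stage alone as far as the labels tell: 15 fetuses at 94 days post conceptionem (94 dpc), 15 newborn piglets at 1 day post natum (1 dpn), 14 juvenile piglets at 28 dpn and 16 finishing pigs at 188 dpn, each with 1 Affymetrix Porcine Genome array. By the methods, fetuses were obtained separately by Caesarean section of anaesthetised sows, juveniles and finishing pigs were killed after an overnight fast, and littermates were spread over the postnatal stages. Within a stage the methods took pairs of sibs, balanced for sex and, in fetuses and newborns, made up of a light and a heavy animal. The labels give no litter, sex or body weight, so all animals were treated as independent, and p-values may therefore be too small. Levels are log2 of the deposited intensity plus 16, and differences are on that scale.

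Hepcidin, the peptide encoded by HAMP, is the hormone with which hepatocytes restrain the entry of iron into plasma, since it binds the iron exporter ferroportin and has it degraded. Its transcription is raised by BMP-SMAD signalling, which reports on iron stores, and by inflammatory cytokines acting through STAT3, and it is lowered by erythropoietic demand. BLVRA encodes biliverdin reductase A, which turns biliverdin into bilirubin after heme oxygenase (HMOX1 or HMOX2) has opened the heme ring and released its iron.

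The HAMP transcript was abundant before and shortly after birth, low in most but not all juvenile piglets, and abundant again in finishing pigs. At 94 dpc the lowest, median and highest fetus were at 10.34, 12.10 and 13.86, and at 1 dpn the lowest, median and highest newborn were at 7.88, 12.35 and 14.00. At 28 dpn the corresponding levels were 4.81, 7.66 and 13.84, and at 188 dpn they were 11.55, 12.96 and 14.73. The range of the fetuses thus lay inside that of the newborns, and only the juvenile group reached down into the background of the array. The stage means were 12.08 ± 1.04 (SD, n = 15), 12.23 ± 1.55 (n = 15), 8.50 ± 2.90 (n = 14) and 13.06 ± 0.97 (n = 16). In order of level, 28 dpn came first, followed by 94 dpc, 1 dpn and 188 dpn, of which 94 dpc and 1 dpn differed by 0.15 ± 0.48 (SE) and 1 dpn and 188 dpn by less than the SD at 1 dpn. Between 1 dpn and 28 dpn (period II) mean HAMP differed by -3.73 ± 0.87 (SE), and 7 of the 14 juveniles lay below every newborn. Between 28 dpn and 188 dpn (period III) it differed by 4.56 ± 0.81 (SE), although only 3 of the 16 finishing pigs lay above every juvenile. With juveniles at background both sizes depend on the 16 added to each intensity: adding 64 gave -3.34 and 4.15, and adding 1 gave -3.93 and 4.77.

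**Figure D1:**
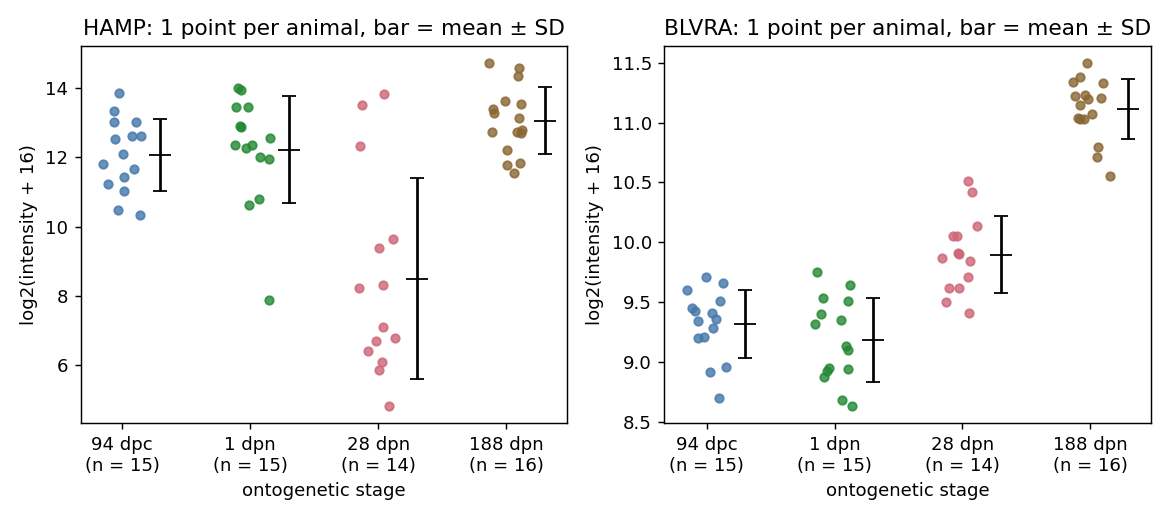
Levels of HAMP (left) and BLVRA (right) as log2(intensity + 16) on the vertical axis against the ontogenetic stage. Each point is an animal, and the black bar is the mean ± SD of the stage; the vertical axes differ and do not start at 0. HAMP at 28 dpn runs from 4.81 to 13.84 with no animal between 9.65 and 12.32, whereas all 16 BLVRA levels of 188 dpn lie above the highest of 28 dpn.

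The spread of HAMP among juveniles was among the widest on the array. In order, the 14 piglets of 28 dpn had HAMP levels of 4.81, 5.85, 6.08, 6.41, 6.70, 6.78, 7.10, 8.23, 8.30, 9.37, 9.65, 12.32, 13.53 and 13.84. The deposited intensities behind them ran from 12.1, which is background, to 14685. An empty stretch of 2.67 lay between the eleventh and the twelfth piglet, that is, between intensities of 789 and 5104. The 3 piglets above it were within the range of every other stage, while 5 of the 11 below it were at or under the brightest Tag control (a probe-set for a sequence not present in pig) of their own array. HAMP exceeded the array median in 7 of these 14 animals, against all animals of the other stages. Of the 12020 probe-sets that passed the filter on low values at 28 dpn, 0 had a larger SD than HAMP (1 when 1 or 64 was added in place of 16), and the median SD was 0.30. The spread was wide at the other stages as well: 56 of 11901 probe-sets had a larger SD at 94 dpc, 16 of 11840 at 1 dpn and 116 of 12009 at 188 dpn. At 1 dpn this rested in part on a single piglet at 7.88, since the next lowest was at 10.62 and the SD without it was 1.02 in place of 1.55.

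BLVRA followed another course, level around birth and then higher at each later stage, with little spread. Its lowest, median and highest levels were 8.70, 9.36 and 9.71 in fetuses and 8.63, 9.13 and 9.75 in newborns. They were 9.41, 9.88 and 10.51 in juveniles and 10.55, 11.17 and 11.50 in finishing pigs. The first 2 groups overlapped throughout, the juveniles overlapped the newborns in part, and the finishing pigs overlapped no other group. The means were 9.31 ± 0.28 (SD, n = 15), 9.18 ± 0.35 (n = 15), 9.89 ± 0.32 (n = 14) and 11.11 ± 0.25 (n = 16). From 94 dpc to 1 dpn (period I) the difference of -0.13 ± 0.12 (SE) was smaller than either SD, and it became 0.04 when all array medians were set equal. In period II BLVRA was 1.64-fold higher, by 0.71 ± 0.12 (SE), and 9 of 14 juveniles lay above every newborn. In period III it was 2.32-fold higher, by 1.22 ± 0.11 (SE), with all 16 finishing pigs above every juvenile. In contrast to HAMP, the SD of BLVRA was ordinary, as 5122, 6384, 5331 and 8913 probe-sets had a larger SD at the successive stages.

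Within a stage the levels of HAMP and BLVRA showed no relation that passed a test. Pearson's r was 0.02 at 94 dpc (n = 15, Spearman's rho 0.02, 2-sided permutation p = 0.95 for r and 0.94 for rho), 0.10 at 1 dpn (n = 15, rho 0.11, permutation p = 0.75 and 0.71) and 0.23 at 188 dpn (n = 16, rho 0.30, permutation p = 0.39 and 0.25). After Benjamini-Hochberg adjustment over these 3 stages all permutation p for r were 0.95, and those for rho were 0.94, 0.94 and 0.76. Without the 2 animals farthest from the median HAMP level r was 0.11, -0.16 and 0.17. At 28 dpn, where HAMP had been picked for its spread, r was -0.29 and rho -0.33 without a test, and r changed to 0.17 without the 2 farthest animals. The 3 piglets with the highest HAMP had BLVRA levels of 10.42, 9.62 and 9.41, which covered most of the range of that stage.

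Several array measures moved with the stages and stand beside every stage difference given here. The medians of the arrays ran from 160 to 182 in fetuses, 133 to 166 in newborns, 107 to 125 in juveniles and 102 to 120 in finishing pigs, and centring every array on its median shifted the median change of all genes in period II from -0.03 to 0.28. The actin 3'/5' ratio (log2), a control that is higher in degraded RNA, ran from 1.14 to 2.23 in newborns, 2.85 to 4.42 in juveniles and 3.28 to 4.64 in finishing pigs. A control probe-set for 18S rRNA had levels of 8.06 to 9.56 in newborns and 13.57 to 14.41 in juveniles, while the other 18S control went from 11.70 to 12.76 in newborns to 8.33 to 11.77 in juveniles. The corresponding ratio for GAPDH ran from 0.81 to 1.30 in fetuses, 0.16 to 0.66 in newborns and 0.65 to 0.97 in juveniles, so that by this control the newborn and juvenile groups overlapped slightly. In period II the actin ratios of the groups did not overlap, so stage and actin ratio cannot be told apart there: with the ratio as a covariate the HAMP difference became 0.78 ± 2.04 (SE) and that of BLVRA 0.54 ± 0.33 (SE). In period III, where the ratios did overlap, the same covariate gave 5.10 ± 0.86 (SE) for HAMP and 1.18 ± 0.12 (SE) for BLVRA. Within 28 dpn HAMP was lower in animals with a higher actin ratio (r = -0.59 over 14 animals, -0.28 without the 2 animals farthest from the median HAMP level), while within 188 dpn the relation ran the other way (r = 0.54 over 16 animals). For the GAPDH ratio r with HAMP at 28 dpn was -0.17. The part of RNA quality in the HAMP spread was not tested. All 14 markers listed for hepatocytes passed the filter at every stage. In whole liver tissue, fewer cells of a type and less RNA per cell cannot be told apart.

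Among the 5147 genes compared with HAMP over the piglets of 28 dpn, ID1 had the most similar levels. ID1 encodes an inhibitor of DNA binding and is, like HAMP itself, a transcriptional target of BMP-SMAD signalling. In the piglet order used above for HAMP, ID1 was at 11.63, 11.38, 10.99, 11.31, 12.03, 11.49, 11.76, 11.98, 11.94, 12.07, 12.45, 13.06, 13.75 and 13.79. The 3 piglets above the HAMP gap thus also had the 3 highest ID1 levels, at 13.06 or more, against at most 12.45 in the others. Over all 14 piglets r was 0.95 and rho 0.89, and as the animals fell into separate sets by HAMP level, r was also taken within the 11 piglets below the gap, a choice made after the values had been seen. There r was 0.76. In 5 of these 11 piglets HAMP was at background, where its order is not resolved, which holds for every r below the gap given here. Without the 2 animals farthest from the median HAMP level r was 0.88, and with the actin ratio removed from both genes 0.94. These values describe likeness only, as the spread at this stage was used to pick HAMP.

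**Figure D2:**
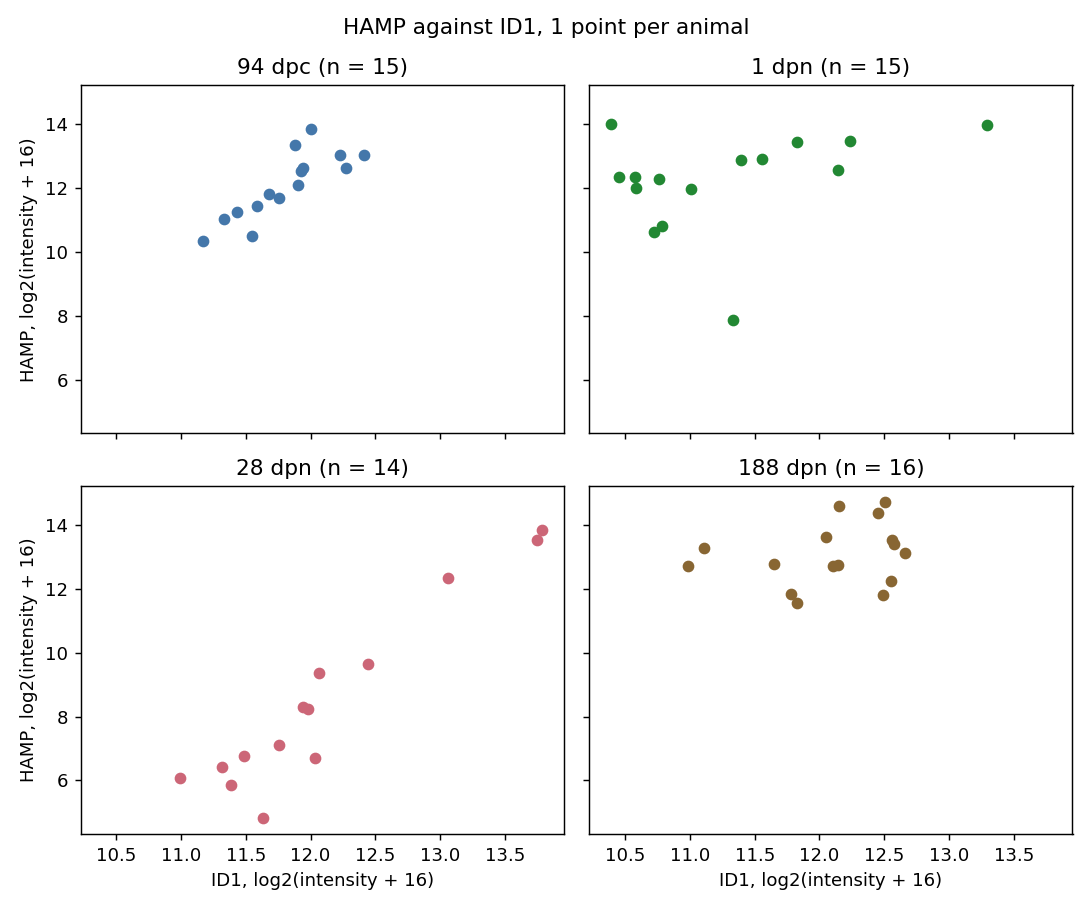
HAMP level (vertical axis) against ID1 level (horizontal axis), both as log2(intensity + 16), with 1 point per animal and 1 panel per stage on shared axes. The points line up at 94 dpc (r = 0.83) and 28 dpn (r = 0.95) and scatter at 1 dpn (r = 0.32) and 188 dpn (r = 0.24). At 1 dpn the r includes 1 piglet that lies apart, at a HAMP level of 7.88.

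The same pair was compared at the other stages, whose mean levels but not whose differences among animals entered the choice of HAMP, with limma slopes fitted for all genes. At 94 dpc the slope of ID1 was 0.28 ± 0.05 (SE) per log2 unit of HAMP with r = 0.83, rho = 0.88 and r = 0.83 without the 2 farthest animals, but its limma adjusted p of 0.084 missed the threshold of 0.05 (the range over the alternatives was 0.066 to 0.43). At 1 dpn the slope was 0.17 ± 0.12 (SE) with r = 0.32, and at 188 dpn it was 0.13 ± 0.13 (SE) with r = 0.24, with limma adjusted p of 1 and 0.91. The newborns included the single piglet with HAMP at 7.88, whose ID1 of 11.33 lay near the newborn mean of 11.27. The r at 1 dpn therefore depended in part on this piglet. Whether the slopes differed between stages was not tested. The mean level of ID1 was almost the same at 28 dpn (12.12 ± 0.86, SD, n = 14) and 188 dpn (12.10 ± 0.52, n = 16), unlike that of HAMP. The juvenile ID1 mean was raised by the 3 piglets above the HAMP gap, at 13.06 or more, against at most 12.45 in the other 11. ID1 levels of 11 juvenile piglets lay inside the range of the finishing pigs, 10.98 to 12.66, and the HAMP levels of these piglets were 4.81 to 9.65, below all finishing pigs.

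Apart from ID1, the 9 genes whose levels were most like those of HAMP at 28 dpn were PPRC1 (r = 0.81), MPND (0.80), HSD17B2 (0.78), NOP2 (0.77), CLDN4 (0.76), MAP3K4 (0.76), IGFBP2 (0.75), PPIF (0.75) and ACOX2 (0.73). HSD17B2 encodes a steroid dehydrogenase, IGFBP2 a binding protein for insulin-like growth factors, PPIF the mitochondrial cyclophilin and ACOX2 a peroxisomal oxidase of bile acid synthesis. Within the 11 piglets below the HAMP gap the r of these 9 genes ran from 0.18 for IGFBP2 to 0.69 for PPRC1, so that the likeness of IGFBP2 rested mostly on the 3 upper piglets. For PPIF r was 0.78 at 94 dpc and 0.62 at 1 dpn but -0.23 at 188 dpn, and for HSD17B2 it was 0.61, 0.34 and -0.39. Of all 5147 genes, 191 (3.71%) had r of at least 0.5 with HAMP at 28 dpn and 372 (7.23%) had r of at most -0.5, and 8 and 3 of the 104 measured genes of the iron, heme and related lists did.

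The genes most opposed to HAMP at 28 dpn were CSRP2 (r = -0.82), IGF1 (-0.82), CYP2C42 (-0.82), CDH5 (-0.81), NMNAT3 (-0.80), VSIG4 (-0.80), TBC1D10B (-0.77), C1QA (-0.76), RNF2 (-0.75) and TMEM106C (-0.75). IGF1 encodes the growth factor through which liver mediates growth hormone action, VSIG4 and C1QA are expressed by Kupffer cells, the resident macrophages of the liver, and CDH5 by endothelial cells. In the 3 piglets above the HAMP gap IGF1 was at 8.04, 7.01 and 7.68, against 8.27 to 10.06 in the other 11. VSIG4 was at 11.46, 11.25 and 11.30 in the former and 11.59 to 12.40 in the latter. Below the gap r weakened to -0.52 for IGF1 and -0.29 for VSIG4. The 3 probe-sets of IGF1 disagreed in strength, with r from -0.82 to -0.27, as did the 2 of CDH5 with -0.81 and -0.31. At the other stages r with HAMP was 0.20, -0.14 and 0.18 for IGF1 and 0.10, -0.16 and -0.65 for VSIG4 at 94 dpc, 1 dpn and 188 dpn.

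Markers of other liver cells also moved with HAMP at 28 dpn. Of all genes compared, 51.6% had r below 0 and 7.23% had r of at most -0.5. Of 12 measured markers of Kupffer cells and macrophages, 9 had r below 0 and 7 had r of at most -0.5. The median was -0.56 against -0.02 over all genes. CD14 (0.37, but -0.21 for its second probe-set), MRC1 (0.28) and CD5L (0.08) went the other way. The summed marker level, which ran from 15.62 to 16.23, had r = -0.74 with HAMP. Within the 11 lower piglets the median of this list was 0.02. The 8 markers of stellate cells and fibroblasts all had r below 0 (median -0.47), and for their summed level r was -0.64, or -0.79 without the 2 farthest animals. All 6 lymphocyte markers had r below 0 (median -0.40), and their summed level had r = -0.49, or -0.16 without the 2 farthest animals. Of 8 endothelial markers 6 had r below 0 (median -0.21). CDH5 had -0.81 and VWF, the von Willebrand factor, 0.58, but the 3 probe-sets of VWF ran from -0.53 to 0.58. The medians were -0.23 for 2 neutrophil markers and 0.18 for 5 bile duct markers. Erythroid markers summed to 10.78 to 13.06 with r = -0.54, but the median over 5 single markers was only -0.14. Among them ALAS2 had -0.58, HBM -0.45, HBB -0.14, EPOR -0.01 and AHSP 0.04. Of 14 hepatocyte markers 12 had r below 0 (median -0.26). At 94 dpc, in contrast, the summed hepatocyte markers had r = 0.64 with HAMP. The part of cell composition in the HAMP spread was not tested.

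**Figure D3:**
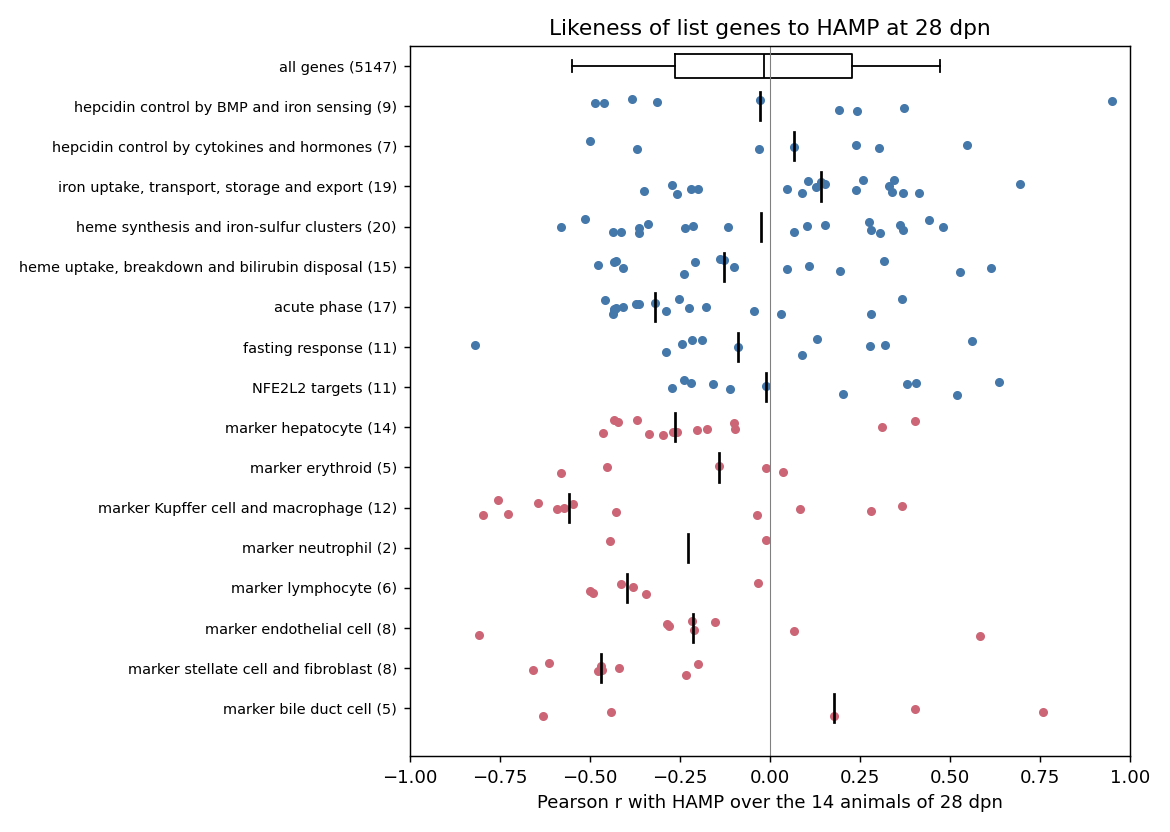
Pearson r of single genes with HAMP over the 14 piglets of 28 dpn (horizontal axis) for each gene list (vertical axis, number of measured genes in brackets). Points are genes, blue for pathway lists and red for cell type markers, black ticks are list medians, and the box shows the quartiles of all 5147 genes with whiskers from percentile 5 to percentile 95. ID1 stands alone at 0.95 in the BMP list, and most Kupffer cell and macrophage markers lie below -0.5.

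The other regulators and partners of HAMP had lower r than ID1 at 28 dpn. Of 9 measured genes on the list of hepcidin control by BMP and iron sensing, ID1 was the only gene with r of at least 0.5. For ID3, a further BMP target, r was -0.38, and for SMAD1, which carries the BMP signal, it was 0.37. Of 7 genes of the cytokine and hormone list CEBPA, a transcription factor of hepatocytes, was the only gene with r of at least 0.5, at 0.55 (0.09 below the gap), while its second probe-set had 0.13. STAT3, the transducer of inflammatory cytokines, had r = -0.50 (0.11 below the gap). CRP, a cytokine-driven acute phase protein, had r = -0.18. Of 17 acute phase genes 14 had r below 0, against 51.6% of all genes. The acute phase median was -0.32, and no acute phase gene reached 0.5 in either direction. In the iron list NCOA4, the receptor that delivers ferritin for breakdown, had the highest r at 0.69, yet its r at 94 dpc was -0.69. Transferrin (TF) had r = -0.26 and ferritin heavy chain (FTH1) -0.22. HMOX2 had r = 0.61 over the 14 piglets and -0.20 below the gap, and HMOX1 had -0.24.

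Slopes on HAMP were then fitted for all genes at the 3 other stages. At 94 dpc 1 of 4939 genes (0.0202%) had a positive slope at a limma adjusted p below 0.05, and 0 (0%) had a negative slope. That gene, TMEM208, encodes a membrane protein of the endoplasmic reticulum and is named because it was the sole call: its slope was 0.33 ± 0.05 (SE), r was 0.89 and the limma adjusted p was 0.028. The call was lost under quantile normalization, without the filter on low values and without the 2 animals farthest from the median HAMP level. At 1 dpn 0 of 5037 genes (0%) and at 188 dpn 0 of 5089 genes (0%) were called by limma in either direction. At an unadjusted limma p below 0.05 there were 763 genes (15.4%) at 94 dpc, 228 (4.53%) at 1 dpn and 250 (4.91%) at 188 dpn. The corresponding counts among pathway genes were 26 of 102 (25.5%), 6 of 103 (5.83%) and 11 of 104 (10.6%), none of them called. Among fetuses 11 of the 14 hepatocyte markers were below this unadjusted p. Transferrin receptor (TFRC), through which cells take up iron, was also listed as an erythroid marker. Its r with HAMP at 94 dpc was -0.65 (limma adjusted p = 0.19).

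For BLVRA, likeness was taken over all 60 arrays and thus followed mostly the stage differences that the animals of a stage shared. Of 5490 genes, the closest were LOC100524254 (r = 0.93), HSD3B1 (0.91), PRDX6 (0.91), PINK1 (0.90), LAMP1 (0.90), ALDH1L1 (0.90), MACROD1 (0.90), ISCU (0.90), ALAD (0.90) and LOC100152327 (0.89). PRDX6 is a peroxiredoxin, LAMP1 a protein of the lysosomal membrane and ALDH1L1 a folate enzyme, while ALAD catalyses an early step of heme synthesis and ISCU is the scaffold on which iron-sulfur clusters are built. Over the 4 stage means r was between 0.94 and 0.98 for each of the 10. Within stages the likeness was uneven. ALAD had r with BLVRA of 0.34, 0.56, 0.69 and 0.26 at 94 dpc, 1 dpn, 28 dpn and 188 dpn. ALDH1L1 had -0.22, 0.40, 0.80 and 0.69, and PRDX6 0.20, 0.47, 0.68 and -0.34. In juveniles BLVRA also had r = 0.74 with the summed lymphocyte markers, a relation of -0.04 in finishing pigs, and its part in the BLVRA level was not tested.

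The enzymes ahead of BLVRA in heme breakdown were tested between stages with limma. HMOX1, the inducible heme oxygenase, had levels of 10.84 ± 0.28 (SD, n = 15) in fetuses, 11.58 ± 0.47 (n = 15) in newborns, 12.14 ± 0.44 (n = 14) in juveniles and 12.51 ± 0.24 (n = 16) in finishing pigs. It thus rose in each period, by 0.74, 0.55 and 0.37, with limma adjusted p of 2.5e-05, 0.0037 and 0.018. The call in period II was lost with the actin covariate and that in period III under quantile normalization. HMOX2, the constitutive form, rose by 0.59 in period I and by 0.58 in period III (limma adjusted p = 1.3e-08 and 3.9e-06). In period II it fell by 0.25 (limma adjusted p = 0.017), which turned to 0.06 when array medians were set equal and to 0.28 with the actin covariate. Beside BLVRA, which was level in period I, both oxygenases were therefore already higher at birth. Of 15 measured genes of heme uptake, breakdown and bilirubin disposal, 9 rose and 1 fell in period I, 4 rose and 6 fell in period II and 8 rose and 3 fell in period III. Among all genes the shares called were 29.8% higher and 35.6% lower in period I, 32.2% and 35.7% in period II, and 17.5% and 28.3% in period III. The largest change of the list was in GSTA1, a glutathione transferase that binds bilirubin, which rose by 2.68 in period I (limma adjusted p = 6.8e-05). Its 3 probe-sets rose by 0.72 to 2.68. The groups overlapped, with GSTA1 levels of 7.94 to 13.86 in fetuses and 11.85 to 15.17 in newborns. ABCC2, the canalicular exporter of conjugated bilirubin, rose by 0.81 in period I and fell by 1.06 in period II (limma adjusted p = 1.5e-08 and 5.9e-09).

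**Figure D4:**
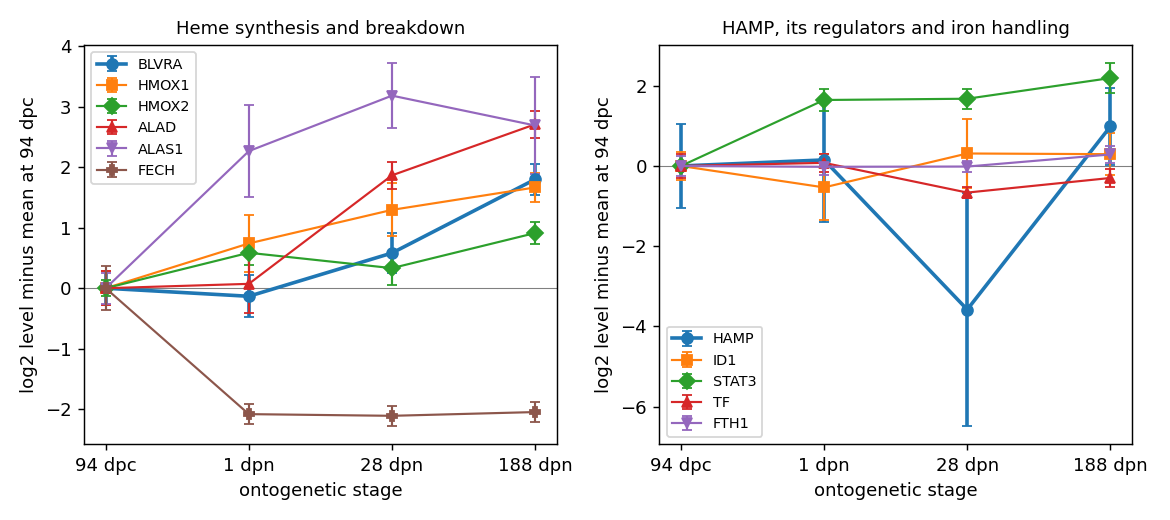
Stage means of BLVRA with enzymes of heme synthesis and breakdown (left) and of HAMP with regulators and iron proteins (right), as log2 level minus the mean at 94 dpc on the vertical axis; bars are the SD among the animals of a stage. BLVRA stays level until 1 dpn and reaches 11.11 at 188 dpn, ALAD runs a similar course, and HAMP has its lowest mean at 28 dpn while ID1 does not.

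Genes of heme synthesis changed in all 3 periods, also in period I, in which BLVRA was level. ALAD stood at 11.42, 11.49, 13.28 and 14.12 at the 4 stages and rose by 1.79 in period II and 0.84 in period III (limma adjusted p = 1.6e-12 and 3.7e-09). ALAS1, the rate-limiting enzyme of hepatic heme synthesis, rose by 2.26 in period I and 0.92 in period II (limma adjusted p = 1.2e-11 and 0.00096), but another of its 3 probe-sets differed by -1.14 in period II, and the call in that period was lost with the actin covariate (limma adjusted p = 0.26). FECH, which inserts iron into the porphyrin ring, fell by 2.08 in period I, and the erythroid ALAS2 fell by 2.41 (limma adjusted p = 3e-17 and 8.7e-12), while all 9 erythroid markers measured fell in that period. Over all genes, 29.8% were called higher and 35.6% lower in period I. In periods II and III these shares were 32.2% and 35.7%, and 17.5% and 28.3%. Of 20 genes for heme synthesis and iron-sulfur clusters, 7 rose and 6 fell in period I, 11 rose and 4 fell in period II and 9 rose and 0 fell in period III. At an unadjusted limma p below 0.05 only 1 gene of this list, ALAS1, was lower in period III (change -0.49, limma adjusted p = 0.099), and under quantile normalization this became a call (change -0.63, limma adjusted p = 0.034).

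Of the genes around HAMP, those of BMP signalling and iron sensing were counted first. The counts stand beside shares over all genes of 29.8% higher and 35.6% lower in period I. For periods II and III those shares were 32.2% and 35.7%, and 17.5% and 28.3%. In period II, in which mean HAMP was lower, 5 of 9 genes of this list rose and 1 fell, and the risers included ID3 by 1.13, BMP4 by 0.96, ID1 by 0.85 and SMAD1 by 0.73 (limma adjusted p = 9.7e-12, 0.00088, 0.012 and 9.1e-09). The juvenile mean of ID1 was raised by the 3 piglets with high HAMP, whose ID1 was at 13.06 or more. BMP4 passed the filter on low values through the juveniles alone, which favours a rise. Its newborn mean of 6.80 was near background, under the highest Tag level of the newborn arrays, 7.25. With the actin covariate the call of BMP4 was lost (limma adjusted p = 0.11). In period I, where HAMP was level, 1 of 8 rose and 5 fell. ID1 was among those that fell (by 0.53, limma adjusted p = 0.032), a call lost with array medians set equal, without the filter, or when the least correlated array was left out. In period III, where HAMP was higher at 188 dpn, 0 of 9 rose (also 0 at an unadjusted limma p below 0.05) and 4 fell. Of the cytokine and hormone list, 4 of 8 rose and 2 fell in period I, 3 of 7 rose and 0 fell in period II (0 fell at an unadjusted limma p below 0.05 as well) and 3 of 7 rose and 2 fell in period III. STAT3 rose by 1.64 in period I and 0.52 in period III (limma adjusted p = 2.1e-17 and 0.00075), and CEBPB, a transcription factor of the acute phase, rose by 0.90 in period III (limma adjusted p = 1.6e-07). SOCS3, a feedback inhibitor of STAT3, had stage means of 4.86 to 5.91, near background.

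Among genes of iron uptake, transport, storage and export, 5 of 21 rose and 8 fell in period I, 3 of 20 rose and 14 fell in period II and 5 of 19 rose and 4 fell in period III. The shares over all genes were 29.8% higher and 35.6% lower in period I, near the counts of this list. They were 32.2% and 35.7% in period II and 17.5% and 28.3% in period III. TFRC, which was also counted among the erythroid markers, fell by 2.20 in period I (limma adjusted p = 8.9e-05). The groups overlapped, with levels of 7.92 to 10.01 in fetuses and 4.58 to 10.22 in newborns. At 28 and 188 dpn TFRC had means of 4.77 and 4.63, near background, also in juveniles with low HAMP. TF fell by 0.74 in period II and rose by 0.36 in period III (limma adjusted p = 1.2e-09 and 0.00032), although its second probe-set was higher by 0.87 in period II and the call in period III was lost under quantile normalization (change 0.098, limma adjusted p = 0.071). SLC39A14, an importer of iron not bound to transferrin, rose by 1.02 in period III (limma adjusted p = 6.1e-06). FTH1 and the ferritin light chain (FTL) stayed within stage means of 15.39 to 15.77. The direction of the small differences depended on the scaling for FTL in each period and for FTH1 in period I. In period II that of FTH1 turned with the actin covariate. FTH1 was called higher in period III (means of 15.47 and 15.77), a call lost under quantile normalization (change 0.0021, limma adjusted p = 0.97). For acute phase genes 12 of 17 rose and 2 fell in period I, 2 rose and 9 fell in period II and 11 rose and 2 fell in period III, and CRP stood at 5.78, 12.11, 13.59 and 14.75 at the 4 stages. The fetal CRP mean was near background, under the highest Tag level of the fetal arrays, 7.05. Over all 8 lists, without HAMP and BLVRA, 47 of 105 tested genes rose and 26 fell in period I, 36 rose and 37 fell in period II and 45 rose and 20 fell in period III. The counts of period II thus lay near the shares over all genes. Setting array medians equal changed the counts in period II to 56 and 18, and the actin covariate changed them to 17 and 17.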

How the data were processed

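Per the labels, liver RNA of 60 AP offspring was hybridised to 1 Affymetrix Porcine Genome array each, with GCOS 1.1.1 named in the submitters' processing notes. The authors deposited linear intensity values scaled to a 2% trimmed mean close to 500 on every array, which are not the GCRMA values of the study's own tests. For the work reported here 16 was added and log2 taken. Of 24123 probe-sets, 124 were controls. The platform annotation gives 10069 a single symbol, 198 several and 13732 none, and 9961 of the gene IDs matched RefSeq for Sscrofa11.1, used for names only. The probe-set of highest mean stood for a gene. A probe-set was tested if it exceeded the array median in no fewer than 50% of the animals of a stage compared.

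Consecutive stages, and slopes on the HAMP level within a stage, were fitted with limma 3.58.1 in R 4.3.3, with Benjamini-Hochberg adjustment over all probe-sets tested and a call at an adjusted p below 0.05. Fits were tested on simulated data. Permutation tests used 100000 resamples. Animals of a stage descended from 8 gilts per the series' design text and were sib pairs per the methods; as the labels name no litters, animals were taken as independent, and p-values can be too small. 0 arrays were identical. The number of arrays limits the precision.

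HAMP, BLVRA and the 8 pathway and 8 marker lists were chosen with earlier results of these data known. Of 198 listed pathway genes 119 had a probe-set with their single symbol, and among the direct partners BLVRB, HJV, HFE, TFR2, TMPRSS6, BMP6, SMAD7, SLC40A1, CP, UGT1A1 and SLCO1B1 were not analysed here. Named were the members, the 10 genes of highest and of lowest r with HAMP at 28 dpn, the 10 of highest r with BLVRA, direct partners, and, of the genes of a list with the largest changes (up to 4 along its main direction, up to 2 against it), those with a role in iron or heme handling or its control. Sequences are not shown. Alternatives were pseudocounts of 1 and 64, quantile normalization, equal array medians, no filter, leaving out the least correlated array of every stage, the actin ratio as covariate, and, for slopes, ranks of HAMP or leaving out the 2 farthest animals.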

Additional observations from a re-analysis of the deposited data

How the results depend on the processing

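The 4 stage means of HAMP and BLVRA moved by less than 1 SD under both other pseudocounts, quantile normalization and equal array medians, except that BLVRA at 94 dpc became 9.01 with equal array medians. The differences of HAMP and BLVRA in periods II and III kept their direction under these settings, and with the actin covariate, added after the data were seen, only the HAMP difference of period II turned, to 0.78.

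Pathway genes called in period II changed to 56 higher and 18 lower with equal array medians, and to 34 in all, 17 higher and 17 lower, with the actin covariate. Those higher in period III became 29 under quantile normalization. With equal array medians the share of higher genes among all genes called went from 45.6% to 61.6% in period I, from 47.4% to 72.2% in period II and from 38.3% to 48.6% in period III. Among named genes, quantile normalization turned FTH1 to 0.25 and FTL to 0.16 in period I, FTL to 0.28 and STAT3 to -0.063 in period II, and FTL to -0.10 and HP to -0.011 in period III. Equal array medians turned FTH1 to 0.15 and FTL to 0.087 in period I, HMOX2 to 0.059, FTL to 0.22 and FECH to 0.29 in period II, and ID1 to 0.045 in period III. The actin covariate turned FTH1 to 0.045 in period I, IL1B to -0.54, PCK1 to -0.22, HMOX2 to 0.28, FTH1 to -0.37, HPX to -0.17 and STAT3 to -0.33 in period II, and ID1 to 0.20 in period III. Over 148 changes of named genes and 1036 recomputed values, 64 lost their call (33 of them with the actin covariate, and 6 with a turned direction) and 13 gained a call (5 with a turned direction). The cause was not tested.

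The single call of the slope on HAMP at 94 dpc became 0 under quantile normalization, without the filter and without the 2 animals farthest from the median HAMP level, and slopes at 1 dpn and 188 dpn gave 0 calls under all settings run. For likeness at 28 dpn, leaving out the 3 animals above the HAMP gap or the 2 farthest animals, both added after the data were seen, changed r of ID1 to 0.76 and 0.88, r of IGF1 to -0.52 and -0.65, r of VSIG4 to -0.29 and -0.57 and the median of the Kupffer cell and macrophage markers to 0.018 and -0.27. The r between HAMP and BLVRA within a stage kept its sign and call under the other pseudocounts, quantile normalization and equal array medians, but leaving out the 2 animals farthest from the median HAMP level turned it to -0.16 at 1 dpn and 0.17 at 28 dpn. No paired analysis was possible because the labels number all 60 animals in 1 series and share no replicate number between stages. Intensities near the Tag controls, as for HAMP in 5 juveniles, carry no order.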
